A study of Homo sapiens with 8 samples.

Results

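BRSK1, BRSK2, NUAK1, NUAK2, MARK1, MARK2, MARK3, MARK4 and SNRK are kinases related to AMPK that the tumour suppressor kinase LKB1 switches on. The members were taken by gene symbol from a table of 18787 symbols, and 8 of the 9 had a row there. BRSK2 had no row under that symbol and was not analysed here. All 8 passed the filter on low values, a value of 10 or more in at least 2 libraries, which kept 14282 genes for testing. MARK1 passed it through its U87 libraries alone.

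The cells were T98 and U87, both established lines grown from human glioblastoma, a malignant brain tumour. They received control siRNA or siRNA against LKB1, the product of STK11, and total RNA for sequencing was taken 72 h later. The 4 groups, T98 control siRNA, T98 LKB1 siRNA, U87 control siRNA and U87 LKB1 siRNA, had 2 libraries each. Every group therefore shared lipid transfection with an siRNA, and how many siRNAs were used, and which, was not stated in the labels. Whether a pair of duplicates came from separate transfections is not stated either, so the p-values reflect the spread among these libraries, possibly a technical one. In each group 1 library was sequenced on lane 2 and the other on a later lane, which was lane 4 in T98 and lane 5 in U87. Lane thus coincides with the duplicate, so a lane difference below cannot be told apart from any other difference between the duplicates.

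LKB1 works with a STRAD pseudokinase and an MO25 scaffold, and it activates these kinases by phosphorylating a threonine in the activation loop, or T-loop, of the catalytic domain. The BRSK kinases are known for setting axon polarity in neurons, the NUAK kinases for adhesion and for control of myosin phosphatase, and the MARK kinases for releasing tau and related proteins from microtubules. SNRK is a more distant relative with known roles in heart and fat cells. The regulation by LKB1 acts on the proteins, whereas the libraries measure the transcripts, so the values below give the amount of each kinase message and not kinase activity.

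The T-loop coding sequence is shown because it holds the codon for the threonine that LKB1 phosphorylates. Each run is 30 bases of the coding strand, 5′ to 3′, from GENCODE release 29 transcripts (GRCh38) matched to the deposited RefSeq identifier for 8 of 8 members. Capitals mark the threonine codon. The runs were found by searching for codons for leucine, any residue, threonine, any residue, cysteine, glycine and serine, which occurred once in each transcript.
BRSK1: ctggagACCagctgcgggtccccccattat
NUAK1: ttacaaACGttttgtgggagtccactctat
NUAK2: ctgcagACAttctgtgggagccccctctat
MARK1: ttggacACAttttgtggaagcccaccctat
MARK2: ctggacACCttctgtggcagtcccccttat
MARK3: ctcgacACGttttgtggcagtcctccatac
MARK4: ctggacACGttctgcgggagccccccatat
SNRK: ctcactACAagctgtggatctcttgcatat
The search fixed the place of the threonine codon, and 3 different codons for it were in use. It also fixed the residues around it, and so part of the identity between the runs. Pairs within the NUAK or MARK families shared 22 to 25 of the 30 bases (7 pairs, median 23), and pairs across families shared 13 to 24 (21 pairs, median 19). MARK2 and MARK4 were the closest at 25. SNRK stood furthest off, sharing 13 to 17 bases with any of the others.

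The values are the authors' normalised read counts, in which reads were brought to a common library size. Recovered library totals ran from 25234334 to 38031734 reads. STK11, the targeted gene, was at 1999 and 2041 in the T98 control libraries and at 339.9 and 587.6 with LKB1 siRNA. In U87 it was at 2445 and 2041 with control siRNA and at 360.7 and 384.6 with LKB1 siRNA, so the groups were apart in both lines. With limma-trend and Benjamini-Hochberg adjustment the STK11 fall passed the threshold of 0.05 in U87 (log2 difference −2.58, SE 0.28, adjusted p = 0.0466) and not in T98 (−2.17, SE 0.28, adjusted p = 0.0824). It passed in both lines once sequencing lane was a term of the fit (adjusted p = 0.00254 in T98 and 0.00195 in U87). MGMT, a DNA repair gene known to be silent in U87, was at 375.3 to 530.7 in T98 and at 0 to 1.25 in U87. Of 8 markers of glia and glioma, S100B, SOX2 and AQP4 were below 1 in all T98 libraries and AQP4 below 1 in all U87 libraries. The intermediate filament VIM was high in both lines, at 34021 to 75285 in T98 and 127524 to 292296 in U87. Epithelial markers summed to 31.1 to 276.9 per library and blood and endothelial markers to 41.7 to 122.8.

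BRSK1, the neuronal polarity kinase (NM_032430, chromosome 19, 55795534 to 55823903, plus strand, hg19), was higher with LKB1 siRNA in both lines. In T98 its normalised read count was 117.4 (lane 2) and 260.3 (lane 4) with control siRNA. With LKB1 siRNA it was 525.5 (lane 2) and 616.3 (lane 4). In U87 it was 589.1 (lane 2) and 561.3 (lane 5) with control siRNA, and 953.1 (lane 2) and 946.3 (lane 5) with LKB1 siRNA. Every LKB1 siRNA library lay above both control libraries of its line, and the T98 LKB1 libraries (mean 570.9, SD 64.2, n = 2) were near the U87 controls (mean 575.2, SD 19.6, n = 2). The values rested on 384 and 1123 reads in T98 and on 1146 and 1836 reads in U87, control and LKB1 siRNA in that order.

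The BRSK1 log2 difference, LKB1 siRNA minus control, was 1.70 in T98 (SE 0.37, limma-trend adjusted p = 0.194) and 0.72 in U87 (SE 0.37, adjusted p = 0.694). The mean of both lines was 1.21 (SE 0.26, adjusted p = 0.0704). None of these passed the threshold when the lane difference was counted as noise. With a lane term for each line, BRSK1 rose in T98 (SE 0.22, adjusted p = 0.00681) and in the mean of both lines (SE 0.16, adjusted p = 0.00246). The U87 difference did not pass with the lane term (adjusted p = 0.0816, 95% confidence interval 0.21 to 1.24). Within lanes the BRSK1 difference was 2.15 (lane 2) and 1.24 (lane 4) in T98. It was 0.69 (lane 2) and 0.75 (lane 5) in U87.

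BRSK1 ranked 181st from the top of 14282 genes by its difference in T98, 1054th in U87 and 242nd by the mean. The T98 effect exceeded the U87 effect by 0.97 (SE 0.52, limma-trend adjusted p = 1.00, interval −0.24 to 2.18). With the lane term the interval was 0.24 to 1.71 and the adjusted p 0.232, so the lines were not shown to differ. The T98 control library on lane 2 had the lowest BRSK1 value of the 8. Without it the T98 difference was 1.13, against 2.27 without the T98 control library on lane 4. The calls with the lane term were lost without any 1 of the 4 U87 libraries, where the spread comes from T98 alone (adjusted p = 0.123 to 0.126 for T98 and 0.102 to 0.121 for the mean). Without the lane term the mean passed once the T98 control library on lane 4 was left out (adjusted p = 0.0429).

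**Figure D1:**
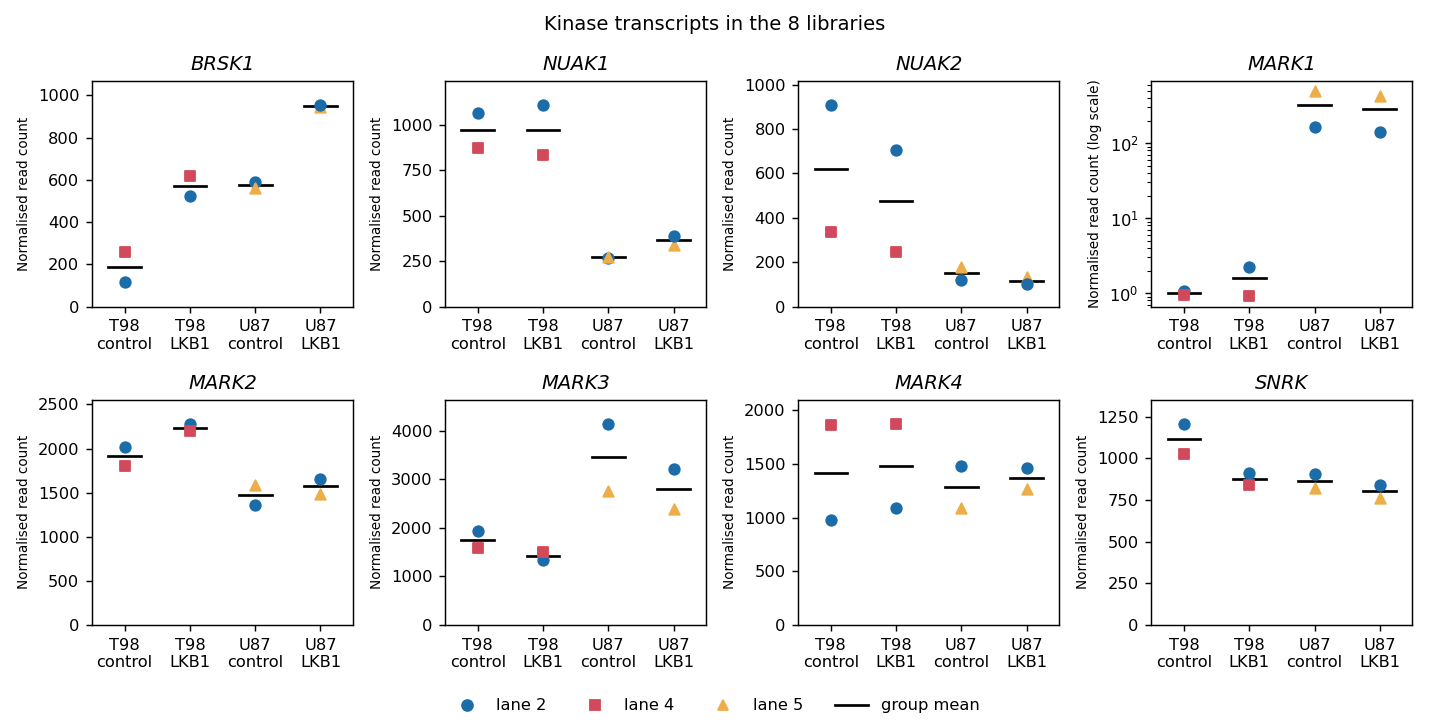
Normalised read count (y axis, log scale for MARK1 only) of the 8 kinase transcripts in each library, by group (x axis), with the lane as symbol and the group mean as a line. BRSK1 stands apart between control and LKB1 siRNA in both lines, and MARK1 is near 1 in T98 and at 142.9 to 491.8 in U87.

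Some neuron markers were higher with LKB1 siRNA as well. The 10 neuron markers summed to 3818 and 4006 in the T98 control libraries and to 6159 and 10036 with LKB1 siRNA. In U87 they summed to 6342 and 8239 with control siRNA and to 10202 and 10983 with LKB1 siRNA. TUBB3, a tubulin, held most of each sum, at 3546 to 9119 per library. Of 7 tested, 3 rose in the mean of both lines with the lane term, where 13.2% of all genes rose, and none fell: SYP, SNAP25 and TUBB3. SYP, a synaptic vesicle protein, also passed without it (2.15, SE 0.33, limma-trend adjusted p = 0.0287). SNAP25, which drives vesicle fusion, had a difference of 1.89 (lane-term SE 0.14, adjusted p = 0.000611). GAD1, SYT1, ELAVL4 and SLC17A7 were tested and did not pass for the mean in either fit. STMN2 and NEFL, markers of mature neurons, were between 0 and 4.81 in every library. RBFOX3, another, stayed below the filter value of 10 in every library and was not tested. It was at 7.40 and 7.64 in the U87 controls and at 1.65 and 2.61 with LKB1 siRNA. In T98 it went the other way, at 1.10 and 3.82 in the controls and 5.73 and 6.52 with LKB1 siRNA. The part of these markers in the BRSK1 result was not tested.

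No other member passed the threshold for a knockdown effect in T98, in U87, in their mean or in their difference, with or without the lane term. Counts are over the 7 members other than MARK1, which had too few reads in T98 for a difference there. Without the lane term 0 of 7 were called in T98, where 0.028% of all 14282 genes were called, 0 of 7 in U87 (0.056%) and 0 of 7 for the mean (1.86%). At an unadjusted p under 0.05 the same limma-trend fits gave 1, 0 and 1 members, BRSK1 where there was 1. With the lane term 1 of 7 was called in T98 (15.8% of all genes), 0 of 7 in U87 (11.2%) and 1 of 7 for the mean (26.4%), against 3, 2 and 4 at an unadjusted p under 0.05. Those 4 for the mean were BRSK1, NUAK2, MARK3 and SNRK. For the difference between the lines, 0 of 7 were called in either fit (0% and 0.476% of all genes), and at an unadjusted p under 0.05 there were 0 without and 1 with the lane term. Their median difference was −0.01 in T98 and 0.09 in U87, beside 0.02 and 0.00 over all genes. With MARK1, which was well covered in U87, the U87 median of the 8 members was −0.01.

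The sign of the difference was the same in all 4 line and lane pairs for 4 of these 7 members, against 43.1% of all genes. BRSK1 was higher in all 4 (21.7% of all genes), and NUAK2, MARK3 and SNRK were lower in all 4 (21.3%). LKB1 and control groups did not overlap in T98 for 4 of the 7 (BRSK1 and MARK2 higher, MARK3 and SNRK lower), where 41% of all genes did not overlap. In U87 they did not overlap for BRSK1 and NUAK1, both higher, and the share over all genes was 37.8%.

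**Figure D2:**
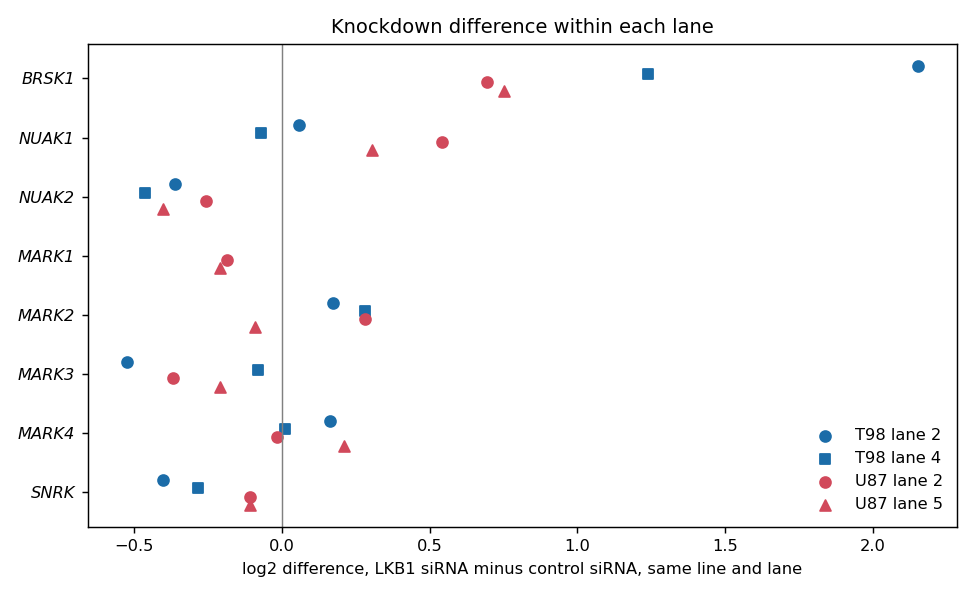
Difference between LKB1 and control siRNA on the log2 scale (x axis) within each line and lane, for each kinase (y axis). BRSK1 lies between 0.69 and 2.15, all other points lie between −0.52 and 0.54, and MARK1 in T98 is left out because it rests on 1 or 2 reads per library.

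NUAK1 (NM_014840, chromosome 12, 106457125 to 106533811, minus strand, hg19) encodes a kinase that acts on the myosin phosphatase targeting subunit. Its normalised read count was 1066 (lane 2) and 875.3 (lane 4) in the T98 controls and 1109 (lane 2) and 833.1 (lane 4) with LKB1 siRNA. The T98 groups overlapped, and their difference was −0.01 (SE 0.25, interval −0.58 to 0.57, limma-trend adjusted p = 1). In U87 it was at 267.1 (lane 2) and 274.0 (lane 5) with control siRNA and at 389.6 (lane 2) and 338.8 (lane 5) with LKB1 siRNA. Both U87 LKB1 libraries lay above both controls, by 0.42 on the log2 scale (SE 0.25, adjusted p = 0.789). With the lane term the U87 interval was 0.07 to 0.78 and the adjusted p 0.119, so the difference did not pass. The NUAK1 effect was 0.43 lower in T98 than in U87, with an interval of −0.93 to 0.07 for T98 minus U87 in the lane-term fit (adjusted p = 0.393).

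NUAK2 (NM_030952, chromosome 1, 205271191 to 205290883, minus strand, hg19), the stress-responsive sister kinase, differed more between lanes than between siRNAs. Its normalised read count in T98 was 908.0 (lane 2) and 335.9 (lane 4) with control siRNA and 706.1 (lane 2) and 243.7 (lane 4) with LKB1 siRNA. The U87 values were 119.4 (lane 2) and 178.6 (lane 5) with control siRNA and 99.8 (lane 2) and 134.8 (lane 5) with LKB1 siRNA. Lane 2 was thus the higher lane in T98, by 1.43 and 1.53 on the log2 scale, and the lower lane in U87, by 0.58 and 0.43. The control and LKB1 groups overlapped in both lines. Within lanes NUAK2 was lower with LKB1 siRNA in all 4 pairs, with differences from −0.46 to −0.26. The mean difference was −0.37 (SE 0.44, limma-trend adjusted p = 0.762) and, with the lane term, had an SE of 0.12 and an adjusted p of 0.0602.

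MARK1 (NM_018650, chromosome 1, 220701568 to 220837799, plus strand, hg19), a kinase that phosphorylates tau, was close to absent from T98. It had 1 read in each T98 control library and 2 reads (lane 2) and 1 read (lane 4) in the T98 LKB1 libraries, too few for a knockdown difference in that line. In U87 its normalised read count was 162.8 (lane 2) and 491.8 (lane 5) with control siRNA and 142.9 (lane 2) and 425.8 (lane 5) with LKB1 siRNA. The lane 5 libraries of U87 were higher by about the same amount with either siRNA (lane 2 minus lane 5 of −1.59 and −1.57). Within lanes the U87 difference was −0.19 (lane 2) and −0.21 (lane 5). It did not pass (−0.20, lane-term SE 0.33, limma-trend adjusted p = 0.749). That fit takes its spread from both lines, including the T98 libraries with 1 or 2 reads. The SE and p therefore do not measure the spread within U87.

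MARK2, MARK3 and MARK4 had the highest group means per kilobase in both control groups, although in the T98 control on lane 2 MARK4 (185.0) lay below NUAK2 (266.4) and SNRK (231.5). MARK2 (NM_017490, chromosome 11, 63606400 to 63678492, plus strand, hg19), which acts in cell polarity, was at 2023 (lane 2) and 1804 (lane 4) in the T98 controls and at 2282 (lane 2) and 2193 (lane 4) with LKB1 siRNA. Its U87 values were 1361 (lane 2) and 1589 (lane 5) with control siRNA and 1653 (lane 2) and 1490 (lane 5) with LKB1 siRNA. Only the T98 groups were apart, and the mean difference of 0.16 did not pass in either fit (lane-term interval −0.07 to 0.39, adjusted p = 0.253).

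MARK3 (NM_001128920, chromosome 14, 103851701 to 103970166, plus strand, hg19), also called C-TAK1 for its action on the phosphatase CDC25C, was at 1937 (lane 2) and 1584 (lane 4) in the T98 controls. With LKB1 siRNA it was at 1347 (lane 2) and 1497 (lane 4). In U87 it was at 4145 (lane 2) and 2757 (lane 5) with control siRNA and at 3214 (lane 2) and 2383 (lane 5) with LKB1 siRNA. MARK3 was lower in all 4 lane pairs, with differences from −0.52 to −0.08, and the groups were apart in T98 and overlapped in U87. The mean difference was −0.30 (SE 0.18, limma-trend adjusted p = 0.507), with a lane-term SE of 0.10 and adjusted p of 0.068.

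MARK4 (NM_001199867, chromosome 19, 45754516 to 45808541, plus strand, hg19), a microtubule and centrosome kinase, differed between the libraries of the 2 lanes and hardly between siRNAs. It was at 973.4 (lane 2) and 1861 (lane 4) in the T98 controls and at 1091 (lane 2) and 1873 (lane 4) with LKB1 siRNA. The U87 libraries held 1478 (lane 2) and 1091 (lane 5) with control siRNA and 1463 (lane 2) and 1264 (lane 5) with LKB1 siRNA. The difference between lane 2 and the other lane was −0.93 and −0.78 in T98 and 0.44 and 0.21 in U87, with control and LKB1 siRNA. The mean difference between the siRNAs was 0.09 with a lane-term interval of −0.12 to 0.31.

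SNRK (NM_001100594, chromosome 3, 43328004 to 43392634, plus strand, hg19) was lower with LKB1 siRNA in all 4 lane pairs and did not pass. It was at 1209 (lane 2) and 1024 (lane 4) in the T98 controls and at 914.0 (lane 2) and 840.6 (lane 4) with LKB1 siRNA. Its U87 values were 905.8 (lane 2) and 823.8 (lane 5) with control siRNA and 841.6 (lane 2) and 765.0 (lane 5) with LKB1 siRNA. The groups were apart in T98 and overlapped in U87. The difference was −0.34 in T98 (SE 0.20, limma-trend adjusted p = 0.607, lane-term adjusted p = 0.111) and −0.11 in U87 (SE 0.20, adjusted p = 0.999). SNRK had the narrowest range of the members, 765.0 to 1209 over the 8 libraries.

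**Figure D3:**
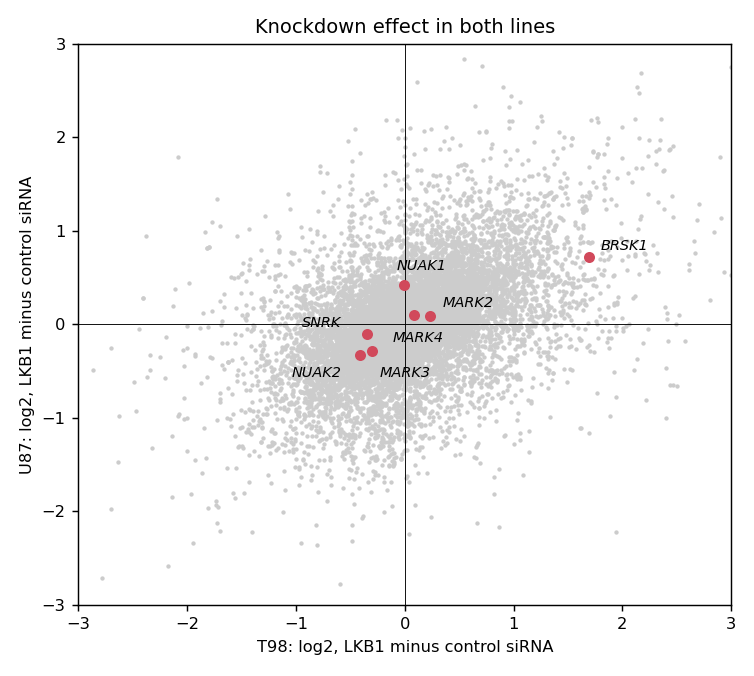
Log2 difference between LKB1 and control siRNA in T98 (x axis) and in U87 (y axis), for all tested genes (grey) and for 7 kinases (red). BRSK1 lies at 1.70 and 0.72, the other 6 lie between −0.41 and 0.42 on both axes, MARK1 is left out for its 1 or 2 reads per T98 library, and 20 genes fall beyond the plotted range of 3 in either direction.

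MARK1 was detected at 1 or 2 reads per library in T98 and at far more in U87. With control siRNA it had 2 reads in all in T98 and 669 in U87, of 63317922 and 63109223 reads. U87 was higher by a ratio of 335.6, with an exact 95% interval of 92.5 to 2777 that covers counting error only. The ratio differed between pairs of libraries. On lane 2, with 1 read against 154, it was 153.4 (interval 27.1 to 6096), and between T98 on lane 4 and U87 on lane 5, with 1 read against 515, it was 520.4 (interval 93.0 to 20595). No test of this difference is given, because MARK1 entered the tested genes only through the line in which it was high. The bulk values cannot tell fewer cells with the transcript from less transcript per cell.

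Among the control libraries 4 of the 7 members other than MARK1 differed between the lines, where 37.7% of all genes were called. NUAK1 was higher in T98 by 1.83 (SE 0.25, limma-trend adjusted p = 0.00131) and NUAK2 by 1.91 (SE 0.62, adjusted p = 0.0454). BRSK1 was lower in T98, at −1.71 (SE 0.37, adjusted p = 0.00968), and so was MARK3, at −0.95 (SE 0.26, adjusted p = 0.0243). The 2 NUAK kinases thus had higher transcript levels in T98, as did 18.3% of all genes, and BRSK1 and MARK3 lower ones, as did 19.5%. The NUAK2 and MARK3 calls were lost with no filter on low values (adjusted p = 0.120 and 0.0565). MARK2 (0.38, interval −0.04 to 0.80, adjusted p = 0.138), SNRK (0.36, interval −0.10 to 0.83, adjusted p = 0.188) and MARK4 (0.08, interval −0.79 to 0.96, adjusted p = 0.875) did not pass. The control groups did not overlap for 6 of the 7, all but MARK4, against 71.6% of all genes.

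With the lane term the comparison is a fitted lane 2 contrast between the controls, which also draws on the LKB1 siRNA libraries, and 6 of the 7 members were called, against 63.3% of all genes. MARK2 then also passed as higher in T98 (0.45, SE 0.17, limma-trend adjusted p = 0.0469). MARK4 passed as lower in T98 (−0.51, SE 0.16, adjusted p = 0.0261), the opposite sign to the fit without the term. Taken from the control values alone, the MARK4 difference was −0.60 on lane 2 and 0.77 between T98 on lane 4 and U87 on lane 5. NUAK2 was higher in T98 by 2.92 on lane 2 and by 0.91 between lanes 4 and 5, with a lane-term value of 2.91 (SE 0.21, adjusted p = 2.1e-05). The same differences for BRSK1 were −2.32 and −1.11, with a lane-term value of −2.07 (adjusted p = 0.000401).

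Leaving out 1 library changed some of these calls. In the fit without the lane term, the NUAK2 call was lost when the T98 control on lane 2 was left out (1.20, limma-trend adjusted p = 0.244). It was also lost without either U87 control library (adjusted p = 0.180 and 0.0766) or either U87 LKB1 library (adjusted p = 0.0584 and 0.0589). The MARK3 call was lost without either T98 control or without the U87 control on lane 2 (adjusted p = 0.0578, 0.112 and 0.141). In the lane-term fit the MARK2 and MARK4 calls were each lost in 5 of the 8 cases, the T98 control on lane 2 and each of the 4 U87 libraries. The MARK2 difference fell to 0.17 and that of MARK4 stood at −0.34 without the U87 control on lane 2. The BRSK1 and MARK3 calls were lost there without the U87 control on lane 2 (adjusted p = 0.0591 and 0.0927). The BRSK1 difference was −1.14 without the T98 control on lane 2, in the fit without the term. NUAK1 passed in all 8 cases of both fits.

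**Figure D4:**
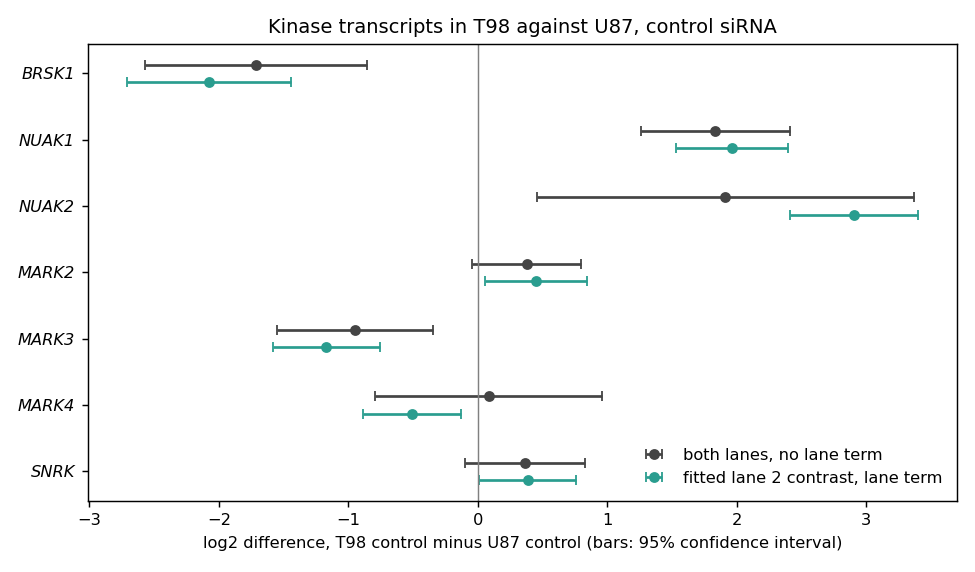
Log2 difference in the control siRNA libraries, T98 minus U87 (x axis), for 7 kinases (y axis), with 95% confidence intervals, without (dark) and with (green) the lane term. NUAK1 and NUAK2 lie to the right, BRSK1 and MARK3 to the left, and MARK4 moves from 0.08 to −0.51 with the lane term.

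Divided by transcript length, the order of the levels differed between the lines. In the T98 controls the order was MARK3 (496.1 normalised reads per kilobase), MARK2 (368.1), MARK4 (269.4), SNRK (213.8), NUAK2 (182.5), NUAK1 (142.2), BRSK1 (60.9) and MARK1 (0.19). The ranges of the 2 libraries overlapped between neighbours from MARK2 down to NUAK1 and were apart for the rest. In the U87 controls the order was MARK3 (972.6), MARK2 (283.7), MARK4 (244.2), BRSK1 (185.6), SNRK (165.6), MARK1 (61.8), NUAK2 (43.7) and NUAK1 (39.6). There the neighbours MARK2 and MARK4, MARK1 and NUAK2, and NUAK2 and NUAK1 overlapped. MARK3 alone made up 48.7% of the members' summed level per kilobase in the U87 controls and 28.6% in the T98 controls. With LKB1 siRNA BRSK1 stood 4th in T98 (184.2) and 2nd in U87 (306.4), overlapping SNRK and MARK2 as the next below. The summed level per kilobase ran from 1654 to 2179 over the 8 libraries.

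**Figure D5:**
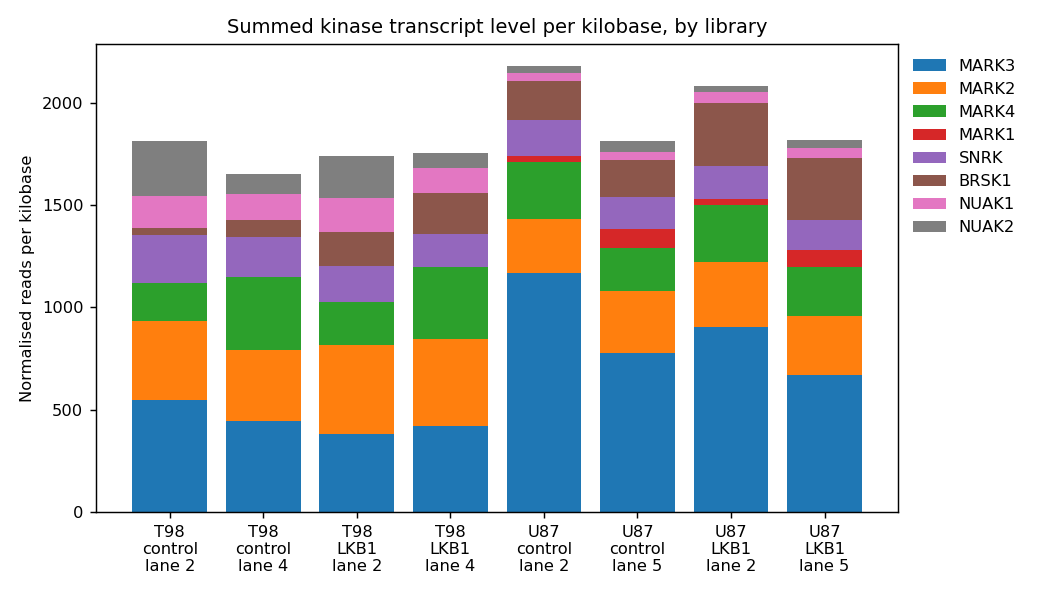
Normalised reads per kilobase of transcript (y axis) summed over the 8 kinases in each library (x axis), with 1 colour for each kinase. MARK3 forms the largest block in both U87 control libraries, and the NUAK1 and NUAK2 blocks are larger in T98 than in U87.

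The LKB1 complex and other kinases of the AMPK family were described through gene lists, with counts for the mean of both lines in the lane-term fit. In that fit 13.2% of all genes were called higher and 13.2% lower. Of 5 genes of the LKB1 complex, 2 fell: STK11 and the MO25 isoform CAB39L (−0.56, SE 0.14, limma-trend adjusted p = 0.0256). Of 5 catalytic kinases of the AMPK and SIK groups, 1 rose and 1 fell. SIK1, which restrains CRTC coactivators, rose by 1.11 (SE 0.10, adjusted p = 0.000975), and PRKAA1, a catalytic subunit of AMPK, fell by 0.50 (SE 0.12, adjusted p = 0.0206). Of 3 other AMPK relatives, NIM1 rose by 1.28 (SE 0.23, adjusted p = 0.00752) from low levels in T98 (5.53 and 58.1 in the controls). MELK, a kinase of dividing cells, fell by 1.07 (SE 0.11, adjusted p = 0.00111). SIK1, PRKAA1, CAB39L and NIM1 did not pass without the lane term (adjusted p = 0.246, 0.263, 0.339 and 0.452), and MELK did (0.0182).

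Proteins that act with these kinases were followed in the same fit. Of 6 tested 14-3-3 genes, whose products bind the phosphorylated targets, 1 rose. YWHAH was at 1915 and 1385 in the T98 controls against 7768 and 4338 with LKB1 siRNA, and at 1602 and 1488 against 3664 and 4132 in U87. Its mean difference was 1.58 (limma-trend adjusted p = 0.0210 without and 0.000315 with the lane term). Of 7 tested regulators of the MARK and NUAK kinases, 2 rose and 1 fell. TAOK2, of the TAO family that activates MARK kinases, rose by 0.58 (SE 0.09, adjusted p = 0.00376). The atypical protein kinases C, known to inhibit MARK kinases by phosphorylation, went in opposite directions. PRKCZ rose by 0.99 (SE 0.15, limma-trend adjusted p = 0.00436) and PRKCI fell by 0.36 (SE 0.10, adjusted p = 0.0317). PRKCZ was at 58.7 and 83.6 in the T98 controls against 207.5 and 215.1 with LKB1 siRNA. In U87 it was at 166.8 and 127.9 against 184.6 and 201.4. With the lane term PRKCZ was called in T98 and not in U87, where TAOK2 alone of these regulators was called. TAOK2, PRKCZ and PRKCI did not pass without the lane term (adjusted p = 0.110, 0.0945 and 0.280).

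Of 12 tested genes for MARK substrates, 5 fell and none rose in the mean with the lane term: MAP2, HDAC7, RAB11FIP2, CDC25C and HDAC4. The median difference of all 12 was −0.40, beside 0.00 over all genes. MAP2, a microtubule protein of dendrites, was at 5980 and 4647 in the T98 controls against 1392 and 1606 with LKB1 siRNA. In U87 its groups overlapped, at 390.8 and 791.5 against 546.0 and 257.9. The MAP2 mean difference was −1.19 (SE 0.12, adjusted p = 0.00106) and that of the histone deacetylase HDAC7 −0.66 (SE 0.10, adjusted p = 0.00358). Without the lane term 1 of the 12 passed, RAB11FIP2 (−1.30, SE 0.24, limma-trend adjusted p = 0.0457).

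Of 5 tested genes for BRSK substrates, 3 fell in U87 with the lane term (CDC25C, WEE1 and CDC25B), where 5.91% of all genes fell. In T98 none was called in either limma-trend fit, with 0 at an unadjusted p under 0.05 in both. CDC25C, a phosphatase that starts mitosis and is also on the MARK list, was at 473.0 and 449.6 in the U87 controls and at 194.3 and 111.9 with LKB1 siRNA (−1.64, SE 0.22, limma-trend adjusted p = 0.00474). WEE1, the kinase that opposes CDC25 phosphatases, was at 1791 and 2041 against 1070 and 831.4 in U87 (−1.02, SE 0.14, adjusted p = 0.00525). In T98 CDC25C (−0.19, adjusted p = 0.562) and WEE1 (0.08, adjusted p = 0.714) did not pass. Neither passed in U87 without the lane term (limma-trend adjusted p = 0.119 and 0.525). Mitosis genes outside these lists also had lower values in U87: AURKA, AURKB and BUB1 had differences of −1.41, −1.60 and −1.21. In T98 theirs were −0.27, −0.39 and −0.28. BUB3, another, was at −0.18 in U87 and 0.12 in T98. The part of the BRSK kinases in the U87 falls was not tested. Of 8 genes for myosin phosphatase and its light chains, which NUAK kinases act on, none was called for the mean in either limma-trend fit, with 0 and 3 at an unadjusted p under 0.05 without and with the lane term. None of the 3 tested epithelial markers was called for the mean in either fit, with 0 and 1 at an unadjusted p under 0.05. Of 5 tested markers of glia and glioma, 2 rose and 1 fell for the mean in the lane-term fit, and GFAP and OLIG2 were not called. SLC1A3 (0.64, SE 0.12, limma-trend adjusted p = 0.00963) and NES (0.58, SE 0.14, adjusted p = 0.0206) rose and VIM (−0.39, SE 0.11, adjusted p = 0.0356) fell with the lane term. None of these 3 passed without it (adjusted p = 0.192, 0.670 and 0.656). The endothelial gene CDH5 was near the floor in T98, at 0.0148 and 1.92 with control siRNA and 2.45 and 10.3 with LKB1 siRNA, too low for a difference to be read from it.

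Over the 8 libraries, the genes whose log2 values followed each kinase most closely were named from 12196 genes with a mean of at least 50. For BRSK1 they were MAPK3, the kinase ERK1 (r = 0.98), and DALRD3 (r = 0.98). For NUAK1 they were AMOTL1 (r = 1.00) and PRNP (r = 0.99), for NUAK2 PLAGL2 and COPS3 (both r = 0.99), and for SNRK SFXN1 and PANK1 (both r = 0.98). For MARK1 they were IL13RA2 and HLA-DRA (both r = 1.00), for MARK2 PYGO1 and RUNX2 (both r = 0.97), for MARK3 TSC22D4 and MURC (both r = 0.99), and for MARK4 ACSF2 (r = 0.99) and ITM2C (r = 0.97). These are the highest of many correlations over 8 points that share 2 cell lines and 3 lanes, and they carry no p. Among the kinases themselves BRSK1 and SNRK ran most nearly opposite (r = −0.96), as did NUAK1 and MARK1 (r = −0.96). MARK1 rests on 1 or 2 reads per library in T98. Its correlations with NUAK1, IL13RA2 and HLA-DRA therefore cannot be told apart from the difference between the lines.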

How the data were processed

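The submitters' processing notes name TopHat2 2.0.8b, hg19 and edgeR, and per the labels' protocols libraries were made with a TruSeq RNA kit that keeps no strand. No read counter was named. The authors deposited a normalised signal for each transcript in each library, with transcript lengths and coordinates, for 18815 RefSeq transcripts. These values deposited by the authors equal edgeR pseudo-counts at a common dispersion of 0.06803. Undoing the adjustment gave, for 99.7% to 100% of a library's values, a whole number of reads to within 0.05, and library totals of 25234334 to 38031734. A separate check, for whole-number steps among the low values, did not pass in every library, so the read numbers given and the TMM alternative rest on recovered reads and count tests were left out. Reads of overlapping genes on opposite strands cannot be told apart.

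Log2 of each value plus a pseudocount of 1 was tested with limma-trend, from limma 3.58.1 under R 4.3.3, over all 8 libraries with a mean for each group (4 residual degrees of freedom), two-sided, with Benjamini-Hochberg adjustment over 14282 genes and a threshold of 0.05. Fold changes on this scale understate those of low genes. A second fit added a term for sequencing lane, read from the column names, in each line (2 residual degrees of freedom). Replicate numbers follow sample order and pair nothing, but lanes pair the libraries of a line: lane differences within a group correlated across genes at 0.72 (T98) and 0.81 (U87) between the siRNA groups, and at 0.12 to 0.18 between lines. The procedure was also run on simulated data, whose spread was set and not taken from these libraries, so no error rate is drawn from it. The members and gene lists were chosen with earlier results of these data known. All members were named, with STK11, MGMT, up to 2 risen and 2 fallen genes of each list by smallest adjusted p for the mean or for 1 line, and the 2 most correlated genes of each member. TUBB3, RAB11FIP2, HDAC4, CDC25B, AURKA, AURKB, BUB1, BUB3 and the low markers fall outside that rule and were named after their values were seen.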

Additional observations from a re-analysis of the deposited data

How the results depend on the processing

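Of 544 recomputed values, 482 kept their direction and their side of the threshold, 30 lost and 7 gained the threshold with the same direction, and 25 changed direction. No member was called for the T98 or the mean knockdown effect, against 1 (BRSK1) with a lane term and 1 with a lane term on TMM log2 CPM of the recovered reads, for each of them. For T98 minus U87 controls, 4 of the 7 members other than MARK1 were called, against 37.7% of all genes. The NUAK2 and MARK3 calls were lost with no filter on low values. MARK1's mean effect of 0.06 was −0.053 with a pseudocount of 8. MARK4's 0.08 for T98 minus U87 controls was −0.51 with the lane term and −0.50 with the lane term on TMM log2 CPM.

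Leaving out each library in turn gave 0 to 1 called members for the mean effect and 3 to 5 for T98 minus U87 controls. In the lane-term test, where this and the TMM alternative were chosen after seeing the data, it gave 0 to 2 (T98), 0 to 1 (U87), 0 to 2 (mean), 0 to 1 (difference) and 3 to 8 (T98 minus U87 controls). Some effects without the lane term took both signs over these fits. In T98 they were NUAK1 from −0.21 to 0.20, NUAK2 from −1.18 to 0.35, MARK1 from −0.072 to 0.70 and MARK4 from −0.38 to 0.55. In U87 they were MARK1 from −0.99 to 0.60, MARK2 from −0.017 to 0.21, MARK3 from −0.58 to 0.0056 and MARK4 from −0.12 to 0.32. For the mean they were NUAK2 from −0.75 to 0.012, MARK1 from −0.34 to 0.45 and MARK4 from −0.14 to 0.33. MARK4 for T98 minus U87 controls ran from −0.38 to 0.55. None of these passed, and MARK1 is included here although in T98 it rests on 1 or 2 reads a library. Where an arm kept 1 library, it was assumed to vary like the other groups.

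Over all 14282 genes the lane term raised the calls from 4 to 2258 (T98), 8 to 1599 (U87), 265 to 3765 (mean), 0 to 68 (difference) and 5386 to 9037 (T98 minus U87 controls). The planned count tests, with edgeR and DESeq2, were left out, since the deposited signal is not counts and the check of recovered reads did not pass in every library. Keeping each transcript as its own row gave no value, since no member has several. The replicate numbers only follow sample order, so no fit used them as a block, and the lane term is the fit that pairs libraries.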
